A study of Mus musculus with 24 samples.

Results

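Hypoxia response genes were followed through cultured mouse T cells. They were 10 genes chosen by symbol: Hif1a, Egln1, Egln3, Bnip3, Bnip3l, Ankrd37, Ndrg1, P4ha1, Vegfa and Higd1a. Each symbol was found once among the 56748 genes of the count table, and all 10 were among the 15885 genes with enough reads to be tested. Glycolytic targets of HIF were left out of the members and appear below only as a companion list. Poly(A) RNA was sequenced in 24 bulk libraries from wild-type mouse T cells, 6 from each of 4 cell types: activated CD8 cells, and T cells polarized in vitro to Th1, Th17 or Treg. Within each cell type 5 libraries had received 1 of the kappa opioid receptor (KOR) agonists at 0.1 µM, and 1 had received the vehicle DMSO, for up to 5 days. The compounds were WMS-200-01 (WMS-200 below), WMS-64-07 (WMS-64), WMS-75-13 (WMS-75), WMS-76-04A (WMS-76) and WMS-83-02 (WMS-83), described in the labels as peripheral agonists derived from perhydroquinoxaline. These full codes are those of the treatment protocol and of the Th1 samples. The Th17, Treg and CD8 samples carry other last numbers for all but WMS-76-04A, and in CD8 title and treatment field differ for 3 samples. Samples were joined by the first number of the code, the one part that the count table's column names also give, so that any comparison of a compound across cell types rests on these being 1 compound. The question of the series was what such agonists do to T cells. The oxygen level of the cultures is not given in the sources used here. No combination of cell type and compound was repeated, so the 6 libraries of a cell type, with different treatments, serve as its replicates, and nothing in the labels says that they came from separate animals. The p-values then measure only the spread between these libraries, which may be technical.

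HIF is a transcription factor made of an oxygen-regulated alpha subunit and a stable beta subunit. When oxygen is present, prolyl hydroxylases of the EGLN family mark the alpha subunit for destruction by the VHL ubiquitin ligase; when oxygen is short, the alpha subunit accumulates and switches on its target genes. T cells also build up HIF-1 alpha when their antigen receptor and mTOR are active, and HIF-1 is known for supporting Th17 and effector CD8 cells. Most control of HIF-1 alpha acts on the protein, so the Hif1a transcript alone does not report the factor's activity. Egln1 and Egln3 are themselves targets and form a feedback loop.

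The promoter sequences are shown because HIF binds DNA at a short core, ACGTG or GCGTG, which can be looked for just before their start sites. RefSeq start sites on GRCm38.p6 gave 9 windows of 250 bases for 8 of the 10 members; none was matched for Bnip3l and Ndrg1. Of these windows 5 precede the outermost start of the gene, and 4 precede a start site further in: 99 bases for P4ha1, 564 for Ankrd37, 6543 for Hif1a and 7214 for 1 of 2 windows of Vegfa. ACGTG or GCGTG was found on either strand in 8 of the 9 windows, and in 38.6% of the 32851 windows of all genes in the same table. At least 2 matches were found in 7 of the 9 windows against 16.7% of all windows, and at least 3 in 4 of the 9 against 6.6%. Of the 5 windows at an outermost start 4 held a match, against 34.9% of 19827 such windows of all genes, and 3 held at least 2, against 14.7%. Matches may overlap, since CACGTG reads as ACGTG on both strands. The members are known HIF targets or parts of its pathway, so these counts describe the genes and were not tested. The window of Bnip3 had the most matches, 5, that of Ankrd37 had 4, and that of Egln3, the member with the most distinct cell type pattern below, had 1. The 3 windows follow in full, 5′ to 3′ on the strand of the gene and ending at the base before the start site, with matches in capitals (CACGT and CACGC are the same cores on the opposite strand). They lie at chr7:138909507-138909756 (minus strand), chr8:45999851-46000100 (minus strand) and chr12:54203875-54204124 (minus strand).
Bnip3: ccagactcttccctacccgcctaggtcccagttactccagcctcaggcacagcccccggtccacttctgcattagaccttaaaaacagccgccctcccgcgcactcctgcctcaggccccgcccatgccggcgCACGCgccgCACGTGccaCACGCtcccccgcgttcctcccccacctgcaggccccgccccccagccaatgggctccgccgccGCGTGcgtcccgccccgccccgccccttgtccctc
Ankrd37: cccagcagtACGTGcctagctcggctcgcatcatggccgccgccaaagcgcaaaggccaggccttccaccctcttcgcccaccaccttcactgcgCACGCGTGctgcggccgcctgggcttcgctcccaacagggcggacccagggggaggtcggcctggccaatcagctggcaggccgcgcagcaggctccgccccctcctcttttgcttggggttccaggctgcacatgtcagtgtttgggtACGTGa
Egln3: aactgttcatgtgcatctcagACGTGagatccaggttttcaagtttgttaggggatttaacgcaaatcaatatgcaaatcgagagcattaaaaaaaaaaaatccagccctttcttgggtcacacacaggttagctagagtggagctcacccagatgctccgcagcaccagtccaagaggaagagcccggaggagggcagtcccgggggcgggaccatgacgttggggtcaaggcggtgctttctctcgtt
Shorter stretches around a match are shown for 4 further members, on the same build, at chr12:73907769-73907829 for Hif1a (plus strand), chr8:124949290-124949350 for Egln1 (minus strand), chr10:59323252-59323295 for P4ha1 (plus strand) and chr9:121857830-121857890 for Higd1a (minus strand).
Hif1a: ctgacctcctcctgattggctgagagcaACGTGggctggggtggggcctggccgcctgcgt
Egln1: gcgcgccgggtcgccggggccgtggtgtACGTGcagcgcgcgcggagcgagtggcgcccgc
P4ha1: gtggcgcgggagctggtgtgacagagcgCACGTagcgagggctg
Higd1a: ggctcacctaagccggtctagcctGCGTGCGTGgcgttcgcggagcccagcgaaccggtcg
In Ankrd37 one ACGTG lay 6 to 2 bases before the start site, and in Higd1a 2 copies of GCGTG shared a base, between 70 and 62 bases before it. The window at the outermost start of Vegfa held no match, and its inner window held 2. That inner window lies wholly inside the gene, so its letters may be transcribed or coding sequence and need not be a promoter. It is counted among the 8 of 9 windows with a match and the 7 of 9 with at least 2. A match is a description of the letters in a window, and a window without one says nothing about the factor.

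Library totals lay between 16842562 and 20937496 counts for CD8, 16933512 and 21946887 for Th1, 16271300 and 21608525 for Th17, and 15188284 and 18500457 for Treg. Cd8a, Il17f and Foxp3 followed the labels. Cd8a averaged 368 CPM (counts scaled to a common library total) in CD8 against 79.5 in Th17, 12.9 in Th1 and 8.71 in Treg. The 5 CD8 markers, Gzmb among them, summed to 2432 to 2623 in CD8 and 162 to 426 in Th17. In Th1 they summed to 218 to 239, and in Treg to 32.2 to 62.3. The part of this spread among Th17 libraries in the results was not tested. Il17f averaged 781 in Th17 against at most 2.15, and Foxp3 335 in Treg against at most 32.1. Some other markers did not: Ccr6 averaged 68.3 in Treg against 29.8 in Th17, and Cxcr3 35.7 in Treg against 15.6 in Th1. Il23r averaged 2.41 in Th17 against 5.39 in Th1, and Il2ra 1792 in CD8 against 1274 in Treg. Cd4 still averaged 172 in the CD8 libraries. Ifng, the Th1 cytokine, averaged 551 in Th1, 1296 in CD8 and 4.76 in Th17. The Treg libraries stood apart in composition, with ribosomal protein genes taking 2.09 ± 0.38% of their counts, against 9.61 ± 0.33% in CD8, 10.8 ± 0.45% in Th1 and 10.4 ± 1.07% in Th17 (SD, n = 6 each). Mitochondrial transcripts took 1.13 ± 0.22% in Treg, against 0.572 ± 0.15%, 0.484 ± 0.11% and 0.336 ± 0.12% in CD8, Th1 and Th17. The 10 B cell markers summed to 141 to 209 CPM in Treg, against 74.7 to 81.8 in CD8, 50.1 to 56.9 in Th1 and 42.5 to 57.6 in Th17, most of it from Ighm, with Ms4a1 at 1.27 in Treg. The 10 stromal and endothelial markers summed to 58.9 to 72.7 in Treg against at most 21.3 elsewhere, nearly all from Pecam1, with Dcn at 0. The 13 myeloid markers summed to between 10.4 and 26.8 in every library, with S100a9 at 0 throughout. These differences run along with every comparison to Treg below, and their part in the results was not tested.

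Each hypoxia response gene was higher in CD8 and in Th1 than in Treg libraries. Th17 lay between for Hif1a, Egln1, Bnip3l, P4ha1 and Higd1a; it did not differ from Treg past the threshold for Bnip3, Ankrd37 and Vegfa, was the highest for Egln3, and was above Th1 for Ndrg1. All 10 were higher in CD8 than in Treg (37.8% of all genes tested were called higher and 40.2% lower), and all 10 were higher in Th1 than in Treg (37.3% and 40.1% of all genes). In Th17 against Treg 7 were higher and none lower (36.5% and 38.3%). Between CD8 and Th17, 8 were higher in CD8 and Egln3 was lower (24.3% and 22.8%), and between Th1 and Th17, 8 were higher in Th1 while Egln3 and Ndrg1 were lower (24.1% and 23.2%). CD8 and Th1 were the closest pair, with 4 members higher in CD8 and Egln3 lower (8.69% and 7.26%). By their column names, all Th1 libraries have WT number 4, found in no other cell type, and all CD8 libraries have number 2. Cell type and WT number therefore cannot be told apart in any pair with Th1, CD8 over Th1 included. The members' median log2 fold change was 1.66 for CD8 over Treg, 1.57 for Th1 over Treg, 0.46 for Th17 over Treg, 0.84 for CD8 over Th17, 0.66 for Th1 over Th17 and 0.18 for CD8 over Th1, while the median over all genes tested lay between -0.09 and 0.02 in the 6 pairs. The members were chosen with earlier results of these data known, so their medians are descriptions. Other HIF targets outside glycolysis, 34 of them tested, had a median of 0.01 for CD8 over Treg. Every member differed somewhere among the 4 cell types, as did 87.4% of all genes. In these bulk libraries, a change in how many cells express a gene and a change in RNA per cell cannot be told apart.

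**Figure D1:**
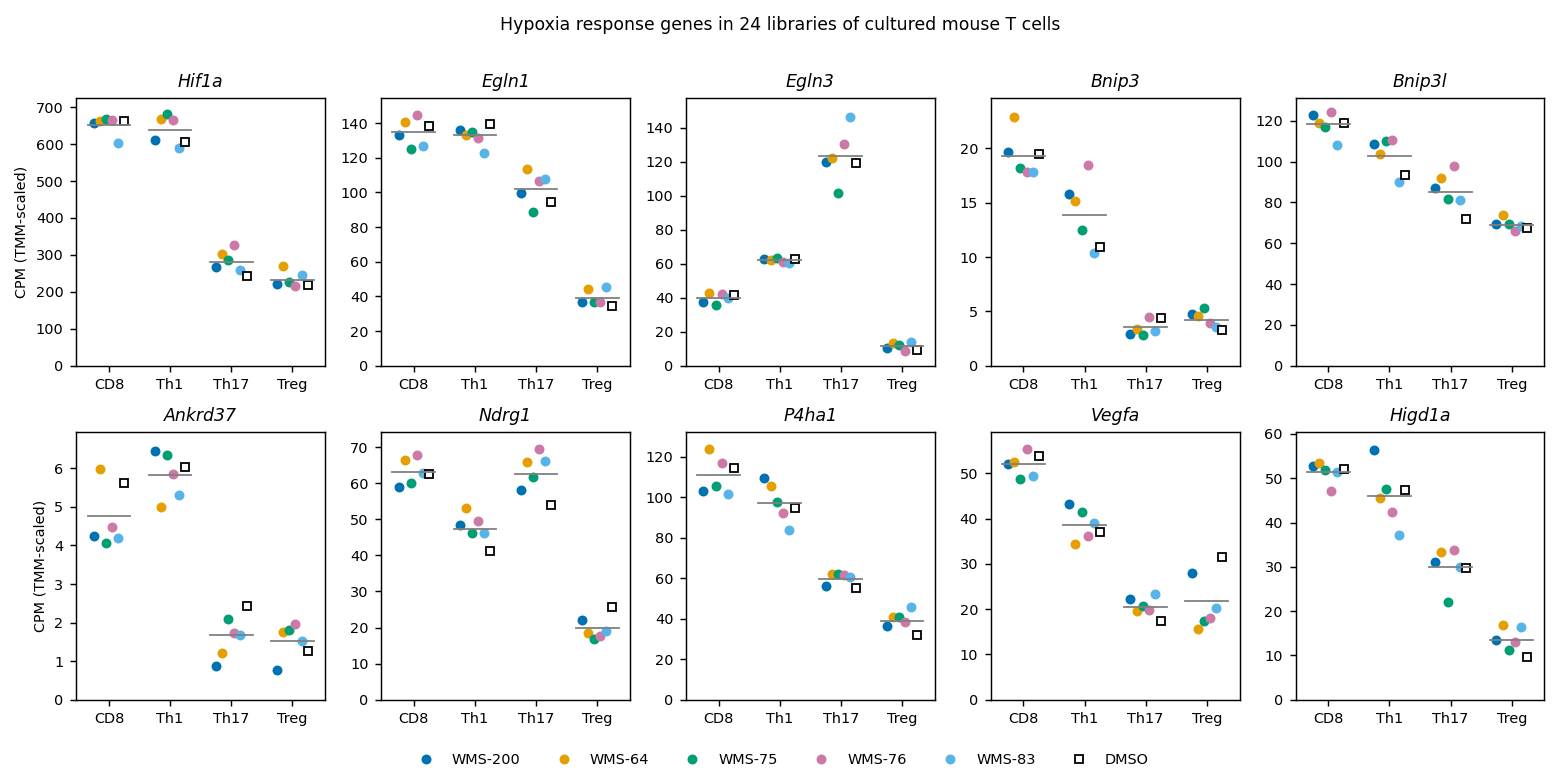
TMM-scaled CPM (vertical axis, starting at 0) of each hypoxia response gene in the 24 libraries, grouped by cell type (horizontal axis); filled circles are agonist libraries coloured by compound, open squares the DMSO library, and grey lines the mean of 6 libraries. Hif1a lies between 589 and 681 in CD8 and Th1 and at or below 326 in Th17 and Treg, while Egln3 peaks in Th17 at 102 to 146.

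Hif1a encodes the oxygen-regulated alpha subunit of HIF-1 (file coordinates 12:73948149-73994304, plus strand, build not given in the sources used here). Levels below are CPM after TMM scaling, a comparison of 1 gene between libraries. In CD8 the 6 libraries ran from 604 to 668 with a median of 662, in Th1 from 589 to 681 with a median of 638, in Th17 from 242 to 326 with a median of 276, and in Treg from 215 to 271 with a median of 224. CD8 and Th1 overlapped each other and lay clear of both other cell types, while Th17 and Treg overlapped in part. The fold change was 2.81 for CD8 over Treg (log2 1.49 ± 0.06, SE, adjusted p = 5.78e-17) and 2.34 for CD8 over Th17 (log2 1.22 ± 0.06, adjusted p = 7.56e-15). The step of Th17 over Treg was small, log2 0.26 ± 0.06 (adjusted p = 5.75e-04). It ended when library totals alone set the scale (log2 -0.08, adjusted p = 0.201), a scaling under which the median of all genes in this pair was -0.43 in place of -0.09, and when the WT number of the column names, a code the labels do not explain, was a block (log2 0.16, adjusted p = 0.144). CD8 and Th1 did not differ past the threshold, log2 0.04 with a 95% interval of -0.09 to 0.17. The gene shares 330 of its 5896 exon bases with the antisense transcript Gm15283 (1289 counts in all against 200675); without a stated strand setting their reads cannot be told apart.

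The EGLN prolyl hydroxylases hydroxylate HIF alpha subunits and so act as the pathway's oxygen sensors. Egln1, which encodes PHD2, the main sensor in most cells (8:125635326-125676063, minus strand), ran from 125 to 145 CPM in CD8, 123 to 139 in Th1, 88.9 to 113 in Th17 and 34.4 to 45.3 in Treg. Treg lay clear below the other cell types, by log2 1.79 ± 0.07 for CD8 over Treg and 1.38 ± 0.07 for Th17 over Treg (adjusted p = 3.72e-18 and 8.07e-16). CD8 and Th1 were 0.41 ± 0.06 and 0.39 ± 0.07 above Th17 and did not differ from each other past the threshold, log2 0.02 with a 95% interval of -0.12 to 0.15.

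Egln3, which encodes PHD3 (12:54225767-54250646, minus strand), followed another order. Its CPM ran from 35.7 to 42.8 with a median of 40.7 in CD8, from 60.6 to 63.1 with a median of 62.4 in Th1, from 102 to 146 with a median of 121 in Th17, and from 8.77 to 14.2 with a median of 11.3 in Treg. No 2 cell types overlapped. Th17 stood 10.9-fold above Treg (log2 3.44 ± 0.10, adjusted p = 3.03e-20), CD8 was at 0.325 of the Th17 level (log2 -1.62 ± 0.09, adjusted p = 1.12e-14) and Th1 at 0.506 of it (log2 -0.98 ± 0.08, adjusted p = 2.18e-10). CD8 was also below Th1, by log2 -0.64 ± 0.09 (adjusted p = 3.83e-06). The 6 Th1 libraries had a coefficient of variation of 1.66%, the lowest of the 40 combinations of member and cell type. Egln1 and Egln3 had opposite directions between CD8 and Th17, +0.41 and -1.62 on the log2 scale.

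**Figure D2:**
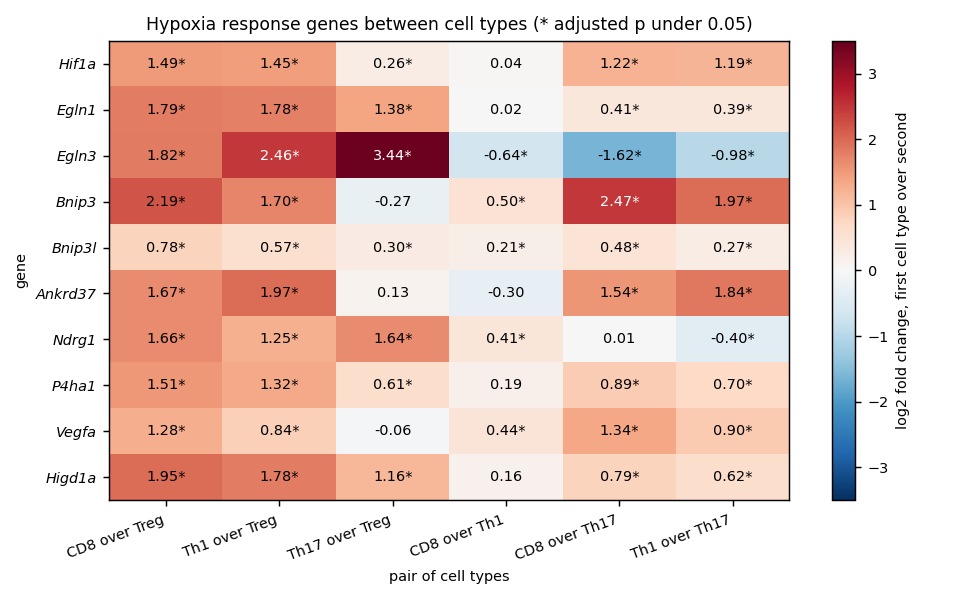
Log2 fold change of each hypoxia response gene (rows) for 6 pairs of cell types (columns), first cell type over second, from the model across all genes; red is higher and blue lower in the first, and an asterisk marks an adjusted p under 0.05. CD8 over Treg and Th1 over Treg are positive in all 10 rows, and Egln3 is the sole member below 0 in all of the last 3 columns.

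Bnip3 and Bnip3l encode mitochondrial outer membrane receptors that recruit autophagosomes for mitophagy. Bnip3 (7:138492565-138511248, minus strand) ran from 17.9 to 22.9 CPM with a median of 18.8 in CD8, from 10.3 to 18.5 with a median of 13.8 in Th1, from 2.85 to 4.44 with a median of 3.26 in Th17 and from 3.28 to 5.33 with a median of 4.26 in Treg. CD8 and Th1 lay clear above Th17 and Treg, and CD8 overlapped Th1 through 1 Th1 library. The fold change was 5.52 for CD8 over Th17 (log2 2.47 ± 0.15, adjusted p = 1.49e-13), 4.57 for CD8 over Treg (log2 2.19 ± 0.14, adjusted p = 2.72e-13) and 1.41 for CD8 over Th1 (log2 0.50 ± 0.13, adjusted p = 0.0105). Th17 over Treg was -0.27 ± 0.16 (adjusted p = 0.116), and it passed the threshold at -0.41 with agonist libraries alone (adjusted p = 0.0241), at -0.62 with library totals alone, at -0.72 with length offsets and at -0.37 without the Th17 DMSO library, and turned to 0.08 with the WT number as a block. Bnip3l (14:67222688-67246326, minus strand) changed less: its means were 118 ± 5.8 CPM in CD8, 103 ± 9.0 in Th1, 85.3 ± 9.1 in Th17 and 69.1 ± 2.7 in Treg (SD, n = 6 each), and each step down this order passed the test, by log2 0.21 ± 0.06, 0.27 ± 0.06 and 0.30 ± 0.06. The first step had an adjusted p of 0.0137, and of 0.0556 without the CD8 DMSO library; the last turned to -0.05 (adjusted p = 0.429) under library totals alone.

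Among the secreted and enzymatic targets, Vegfa encodes the angiogenic growth factor VEGF-A (17:46327919-46343295, minus strand). It ran from 48.7 to 55.4 CPM with a median of 52.3 in CD8, from 34.5 to 43.3 with a median of 38.0 in Th1, from 17.4 to 23.4 with a median of 20.3 in Th17, and from 15.6 to 31.5 with a median of 19.1 in Treg. The CD8 libraries were the highest with no overlap, and Th17 lay within the wide Treg range. CD8 was above Treg by log2 1.28 ± 0.11 (adjusted p = 1.70e-10), above Th17 by 1.34 ± 0.11 (adjusted p = 2.58e-10) and above Th1 by 0.44 ± 0.11 (adjusted p = 0.00654). Th17 over Treg was -0.06 ± 0.12 (adjusted p = 0.624); without the Treg DMSO and WMS-200 libraries it was 0.21 (adjusted p = 0.0324), and with library totals alone -0.41 (adjusted p = 0.00344). P4ha1, a catalytic subunit of the collagen prolyl 4-hydroxylase (10:59159118-59209126, plus strand), averaged 111.0 ± 8.8 CPM in CD8, 97.3 ± 9.3 in Th1, 59.7 ± 3.0 in Th17 and 39.1 ± 4.8 in Treg. Its CD8 and Th1 libraries lay above all of Th17, and Th17 above all of Treg, with log2 1.51 ± 0.08 for CD8 over Treg and 0.61 ± 0.08 for Th17 over Treg (adjusted p = 1.09e-15 and 5.23e-08). CD8 over Th1 was 0.19 ± 0.07 with an adjusted p of 0.0810, and passed in 7 of the alternatives, among them library totals alone (0.21, adjusted p = 0.0267), length offsets (0.19, 0.0326), the 2 cell types alone (0.20, 0.00225) and the fit without the Th1 WMS-200 library (0.25, 0.0231).

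Higd1a encodes a small inner mitochondrial membrane protein that helps respiratory complexes work when oxygen is low (9:121677629-121687428, minus strand). Its means were 51.5 ± 2.2 CPM in CD8, 46.0 ± 6.4 in Th1, 29.98 ± 4.26 in Th17 and 13.4 ± 2.9 in Treg (SD, n = 6 each). Treg lay below every other library, by log2 1.95 ± 0.11 for CD8 over Treg and 1.16 ± 0.11 for Th17 over Treg (adjusted p = 3.18e-14 and 9.79e-10). Ndrg1, a stress-induced gene of the NDRG family (15:66801167-66841489, minus strand), ran from 59.1 to 67.7 CPM with a median of 62.8 in CD8, from 41.2 to 53.1 with a median of 47.4 in Th1, from 53.9 to 69.4 with a median of 63.8 in Th17 and from 17.0 to 25.7 with a median of 18.7 in Treg. CD8 and Th17 overlapped (log2 0.01 ± 0.09, 95% interval -0.16 to 0.19) and Treg lay far below. With the WT number as a block CD8 over Th17 was 0.28 (adjusted p = 0.0391). Th1 was below Th17 by log2 -0.40 ± 0.09 (adjusted p = 3.93e-04) and CD8 above Th1 by 0.41 ± 0.09 (adjusted p = 0.00101).

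Ankrd37 encodes a small ankyrin repeat protein and was the least abundant member (8:46449939-46458744, minus strand; 16 to 122 counts per library). It ran from 4.06 to 5.98 CPM with a median of 4.37 in CD8, from 4.99 to 6.45 with a median of 5.95 in Th1, from 0.869 to 2.43 with a median of 1.70 in Th17 and from 0.770 to 1.96 with a median of 1.64 in Treg. CD8 and Th1 lay clear above both other cell types. The log2 fold change was 1.97 ± 0.22 for Th1 over Treg (adjusted p = 6.37e-09), 1.54 ± 0.22 for CD8 over Th17 (adjusted p = 1.34e-06) and -0.30 ± 0.20 for CD8 over Th1 (adjusted p = 0.377). Th17 over Treg was 0.13 ± 0.23 (adjusted p = 0.620) and turned to -0.60 (adjusted p = 0.0167) with length offsets. These values are uncertain, because Ankrd37 shares 57 and 349 of its 1539 exon bases in GENCODE M21 with Ufsp2 and Lrp2bp on the opposite strand, of which Ufsp2 had 9483 counts in all against 1525, and the strand setting of the counting is not given in the sources used here.

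Where groups were compared by overlap alone, all 10 members had every CD8 library above every Treg library and all 10 every Th1 library above every Treg library (37.8% and 37.3% of all genes were called higher in these pairs, and 30.7% and 30% of all genes lay clear above). For Th17 over Treg 5 members lay clear above (28.9% of all genes). For CD8 over Th17, 8 lay clear above and 1 below (17.1% and 15.3%), for Th1 over Th17, 7 and 2 (15.8% and 15.9%), and for CD8 over Th1, 2 and 1 (7.48% and 6.26%).

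Per kilobase of the gene length in the file, which allows genes to be compared, Hif1a was the most abundant member in each cell type by its mean and Ankrd37 the least. In CPM per kilobase, Hif1a stood at 111 ± 4.1 in CD8, 108 ± 6.7 in Th1, 47.5 ± 5.1 in Th17 and 39.5 ± 3.6 in Treg (SD, n = 6 each). In Th17, Egln3 reached 46.3 ± 5.5, within the spread of Hif1a, whereas in CD8 it was at 15.0 ± 1.0, below the 37.5 ± 2.1 of Egln1. In Treg the second most abundant member was Bnip3l at 17.9 ± 0.71, and its paralog Bnip3 stood at 1.87 ± 0.34. In CD8, Bnip3l was at 30.7 ± 1.5 and Bnip3 at 8.53 ± 0.85.

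**Figure D3:**
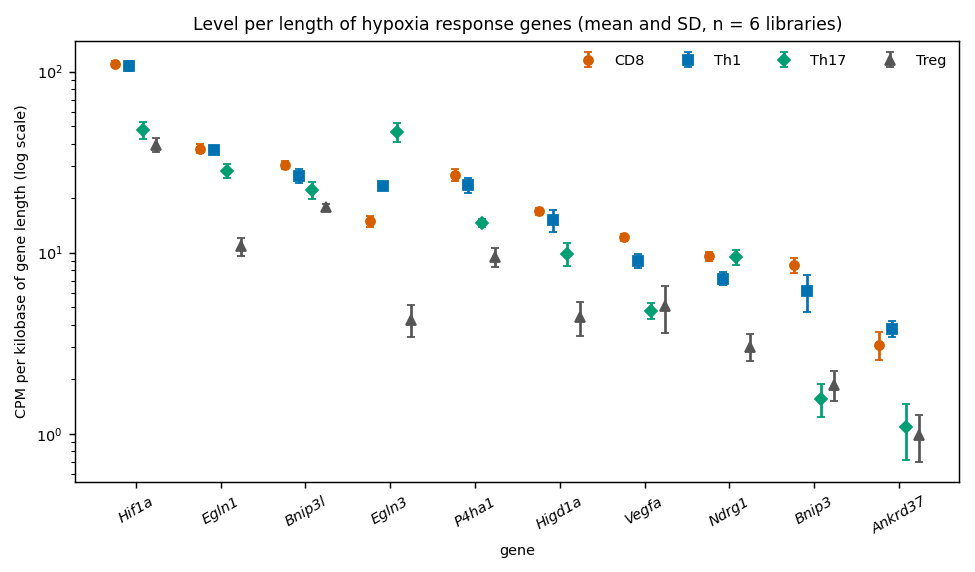
Level per length (CPM per kilobase, log axis) of the hypoxia response genes, ordered by their mean over the cell types, with 1 point and SD bar for each cell type (n = 6 libraries). The scale runs from 111 for Hif1a in CD8 to 0.985 for Ankrd37 in Treg, and the Egln3 point of Th17 lies above those of the other cell types.

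How alike 2 patterns were was measured as the root mean square difference of log2 CPM over the 24 libraries after each gene was centred on its mean. Among the members the nearest pairs were Egln1 and Higd1a (0.194), Hif1a and P4ha1 (0.213), and P4ha1 and Higd1a (0.273). The most distant were Egln3 and Bnip3 (1.62). Egln3 was nearest to Ndrg1 among the members (0.777), and both had Th17 above Th1. Over the 12563 other protein coding genes with a symbol, the nearest to Hif1a were Abtb2 (0.140), Ero1a (0.144) and Abcd3 (0.166). The nearest to P4ha1 were Zswim4 (0.117), Sfxn1 (0.133) and then Ero1a (0.141), an oxidase of the endoplasmic reticulum. Ero1a averaged 211 ± 6.6 CPM in CD8, 177 ± 7.8 in Th1, 98.9 ± 10.2 in Th17 and 70.9 ± 7.9 in Treg. Egln1 was nearest to Serbp1 (0.0891) and Bnip3 to Sdc4 (0.281). Bnip3l was nearest to Smndc1 (0.0964), Higd1a to Tmsb4x (0.151), Ndrg1 to Hs2st1 (0.193), Vegfa to Arap2 (0.194) and Ankrd37 to Adap1 (0.28). The 3 genes nearest to Egln3, Sf3b6, Il1r1 and Ndufb1, lay at 0.323 to 0.388, beside a spread of Egln3 about its own mean of 1.27. Points share libraries, depth and cell type, so these distances are descriptions.

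The companion lists of the pathway differed in how they moved; the shares of all genes called in each pair, given above, are their background. Of the 14 HIF subunit and oxygen-sensing genes, which include Hif1a, Egln1 and Egln3, 9 were higher and 4 lower in CD8 than in Treg, with a median log2 fold change of 1.15 against -0.08 over all genes. Elob, a subunit of the VHL ubiquitin ligase, was higher in CD8 by log2 1.98 ± 0.09 (117 against 29.7 CPM), whereas Hif3a, an alpha subunit whose short forms can inhibit HIF, was lower in CD8 by log2 -2.29 ± 0.24 (2.89 against 13.8 CPM) and in Th17 by -2.94 ± 0.25 (1.80 against 13.8 CPM). Arnt, the stable beta subunit, was lower in CD8 than in Treg by -0.35 ± 0.06 (68.7 against 87.2 CPM). Of 34 tested HIF targets outside glycolysis, none of them members, 15 were higher and 14 lower in CD8 than in Treg, median 0.01, beside 37.8% and 40.2% of all genes, and 18 were higher and 9 lower in Th1 than in Th17, median 0.21, beside 24.1% and 23.2% of all genes. Ak4, a mitochondrial adenylate kinase, averaged 32.2 CPM in CD8 against 2.29 in Treg. In contrast Cxcr4, a chemokine receptor, was at 8.86 CPM in CD8, 4.67 in Th1 and 71.1 in Th17 against 71.9 in Treg, and Rora, a nuclear receptor of the Th17 program, at 26.4, 16.1 and 267 against 174.

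Of the 25 glycolysis and glucose uptake entries, in which Aldoa has 2 identifiers, 23 were higher and 1 lower in CD8 than in Th17 (median 0.92), 23 were higher and none lower in Th1 than in Th17 (median 0.88), and 19 were higher and 5 lower in CD8 than in Treg (median 1.58). Hk2, a hexokinase, averaged 287 CPM in CD8, 227 in Th1 and 61.02 in Th17 against 22.5 in Treg, while Eno2, an enolase, was lower in CD8 than in Treg by log2 -2.33 (35.8 against 180 CPM). The relatives of single members split. Of the 4 tested prolyl 4-hydroxylase genes, P4ha1 included, 3 were higher and 1 lower in CD8 than in Treg, with P4ha2 at 11.97 against 1.76 CPM and P4htm, a transmembrane prolyl hydroxylase and the one lower gene, at 9.96 against 15.6 CPM. In the NDRG family Ndrg4 was lower in CD8 than in Treg by log2 -2.60 (2.60 against 15.9 CPM), opposite to Ndrg1, and of 7 tested VEGF ligands and receptors, Vegfa included, 2 were higher and 3 lower, with the co-receptor Nrp1 at 53.5 against 77.4 CPM. Of 18 tested BNIP3 family and mitophagy genes, Bnip3 and Bnip3l included, 10 were higher and 7 lower in CD8 than in Treg (median 0.57), 11 and 5 in Th17 than in Treg (0.33), and 6 and 7 in CD8 than in Th17 (-0.04). Of 10 HIF coactivators and turnover factors, 6 were higher and 4 lower in CD8 than in Treg, median 0.75.

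No member passed the test for the agonists across the 4 cell types. Agonists over DMSO called 0 members (0% of all genes; 1 member and 504 genes had an unadjusted p under 0.05 in edgeR, and limma-voom called 0 members and 5 genes). Each of the 5 compounds against DMSO likewise called 0 members and 0% of all genes, as did the test of any difference among the agonists. In the 10 pairs of agonists 0 members were called (0.00063% of the tests over all genes and pairs), with the smallest member p at 0.566 after adjustment for Egln1, WMS-64 over WMS-75. The fitted change of agonists over DMSO was 0.10 ± 0.06 for Hif1a on the log2 scale (95% interval -0.02 to 0.22), 0.05 ± 0.06 for Egln1 (-0.08 to 0.17), 0.06 ± 0.08 for Egln3 (-0.11 to 0.23) and 0.12 ± 0.06 for Bnip3l (0.003 to 0.23, unadjusted p = 0.0454, adjusted p = 0.992). These intervals are for the average over the 4 cell types and 5 compounds, and in these 4 genes they reach up to 0.23. A larger change inside 1 cell type is not excluded, and the Th17 estimates of Hif1a and Bnip3l given below were larger. Ankrd37 had the widest interval, -0.62 to 0.20. Over the 20 agonist libraries, Hif1a was above the DMSO library of its cell type in 16, Bnip3l and P4ha1 in 15 each, and Ankrd37 in 7. Ndrg1 and Higd1a were above it in 13 each, Bnip3 in 12, Egln1 and Egln3 in 11 each, and Vegfa in 9. The 20 ratios share 1 DMSO library in each cell type, so they are not independent. The share of all genes was not counted, and these numbers only describe the members.

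**Figure D4:**
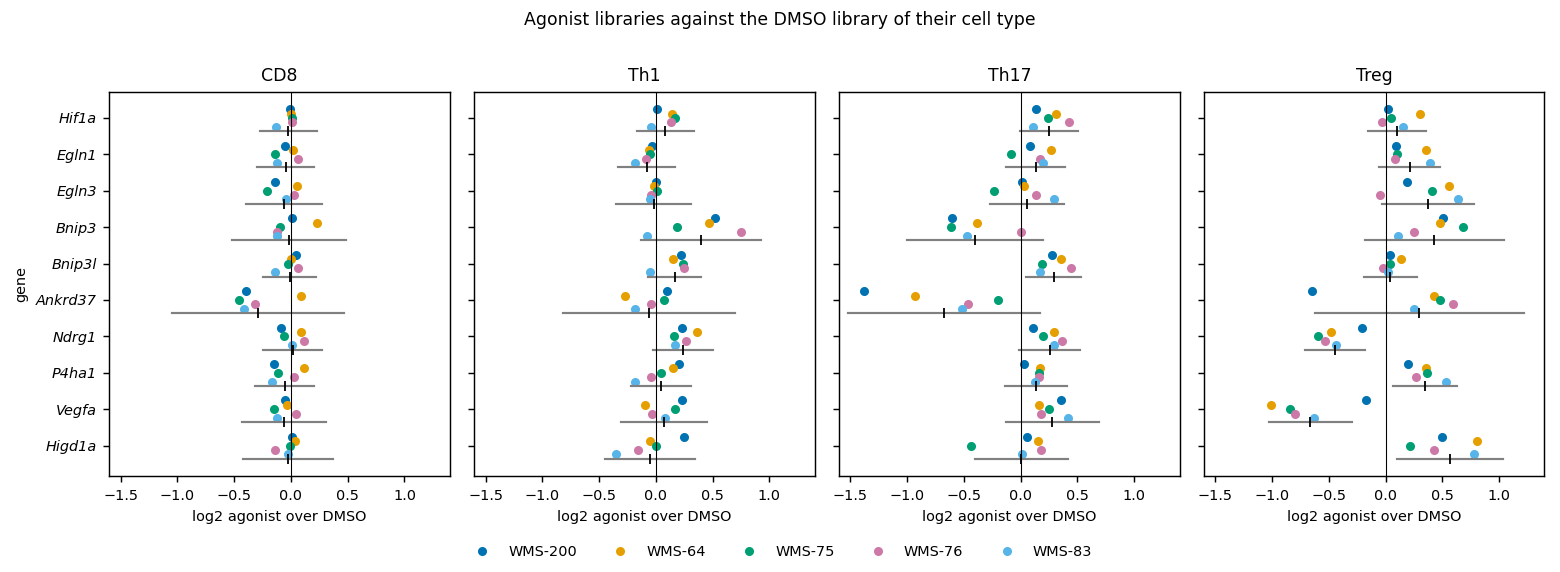
Log2 ratio of each agonist library to the DMSO library of its cell type (horizontal axis) for the hypoxia response genes (rows), one panel for each cell type; coloured points are single libraries, and the grey bar and black tick under them give the 95% interval and estimate of the 5 agonists together. The CD8 points lie between -0.21 and 0.23 for every member but Ankrd37, and in Treg all 5 points of Vegfa and of Ndrg1 lie below 0.

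Inside a cell type the 5 agonist libraries were set against 1 DMSO library, which the model takes to vary like the other groups. The share of all genes with all 5 on the same side of DMSO was not counted, here or for Treg below. All genes share that DMSO library, so such positions only describe the members. In CD8, Th1 and Th17 no member was called (0.0063%, 0% and 0.0378% of all genes; 0, 0 and 1 members had an unadjusted p under 0.05, and DESeq2 and limma-voom called none). In CD8 the 10 estimates lay between -0.29 for Ankrd37 and 0.01 for Ndrg1. In Th17 all 5 agonist libraries were above DMSO for Hif1a (260 to 326 against 242 CPM), Bnip3l (81.0 to 97.8 against 71.9), Ndrg1, P4ha1 and Vegfa, with Hif1a at log2 0.25 ± 0.13 and Bnip3l at 0.29 ± 0.12. All 5 were below DMSO for Ankrd37 (0.869 to 2.10 against 2.43 CPM; log2 -0.67 ± 0.41), and 4 of 5 for Bnip3 (log2 -0.40 ± 0.29); the adjusted p was 1 for each member. The Th17 DMSO library is the one Th17 library with WT number 2, so that treatment and WT number cannot be told apart in Th17.

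In Treg 2 members were lower with the agonists and none higher, where 1.18% of all genes were called lower and 7.64% higher (8.82% in all). Vegfa was at 15.6 CPM with WMS-64, 17.5 with WMS-75, 18.0 with WMS-76, 20.2 with WMS-83 and 27.98 with WMS-200, against 31.5 with DMSO, a log2 change of -0.66 ± 0.18 (adjusted p = 0.0209). Ndrg1 was at 18.4, 17.0, 17.8, 18.9 and 22.2 CPM in the same order, against 25.7 with DMSO, a log2 change of -0.45 ± 0.13 (adjusted p = 0.0311). For both genes the WMS-200 library was the nearest to DMSO. In the column names these 2 libraries carry the WT number 3 and the other 4 Treg libraries the number 2, so treatment and WT number cannot be told apart for 4 of the 5 agonists. The first principal component of the Treg libraries, with 42% of the variance, put the WMS-200 library at 45.1 and the DMSO library at 43.95, and the other 4 between -36.5 and -12.8. With the WT number as a replicate block, which leaves WMS-200 against DMSO, Vegfa was at -0.17 (adjusted p = 0.823) and Ndrg1 at -0.21 (adjusted p = 0.693), and 0 members and 17 genes were called. The Ndrg1 call also ended without the Treg WMS-75 library (adjusted p = 0.0530), without the filter on low counts (0.133) and in limma-voom (0.0614).

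The other 8 members had positive estimates in Treg, none past the threshold, and that of Bnip3l (0.04) turned negative under 4 other scalings and tools. Values of P4ha1 were above DMSO in all 5 agonist libraries (36.5 to 46.1 against 31.8 CPM; log2 0.35 ± 0.14, adjusted p = 0.117), as were Higd1a (11.1 to 16.8 against 9.57 CPM; 0.57 ± 0.23, adjusted p = 0.121), Egln1 (36.5 to 45.3 against 34.4 CPM; 0.21 ± 0.13, adjusted p = 0.353) and Bnip3. Higd1a passed at 0.62 (adjusted p = 0.0237) without the filter on low counts. Hif1a itself was at 215 to 271 CPM against 219 CPM, log2 0.10 ± 0.12 (adjusted p = 0.672). The share of ribosomal protein counts was 1.90% to 2.59% in the agonist libraries against 1.52% with DMSO, and its part was not tested. Whether the agonist effect differs between the cell types was tested for each member and called 0 (0.176% of all genes; 2 members had an unadjusted p under 0.05): Ndrg1, which was above DMSO in all 5 agonist libraries of Th1 and of Th17 and below it in all 5 of Treg, had an adjusted p of 0.110, and Vegfa, above DMSO in all 5 of Th17 and below in all 5 of Treg, 0.200. DESeq2 called Ndrg1 in that test (adjusted p = 0.0236), and leaving out the Treg WMS-200 library called Ndrg1 (0.00847) and Vegfa (0.00244). Without that library, all Treg agonist libraries carry WT number 2 and the Treg DMSO library number 3. Treatment and WT number then cannot be told apart for any agonist in Treg.

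**Figure D5:**
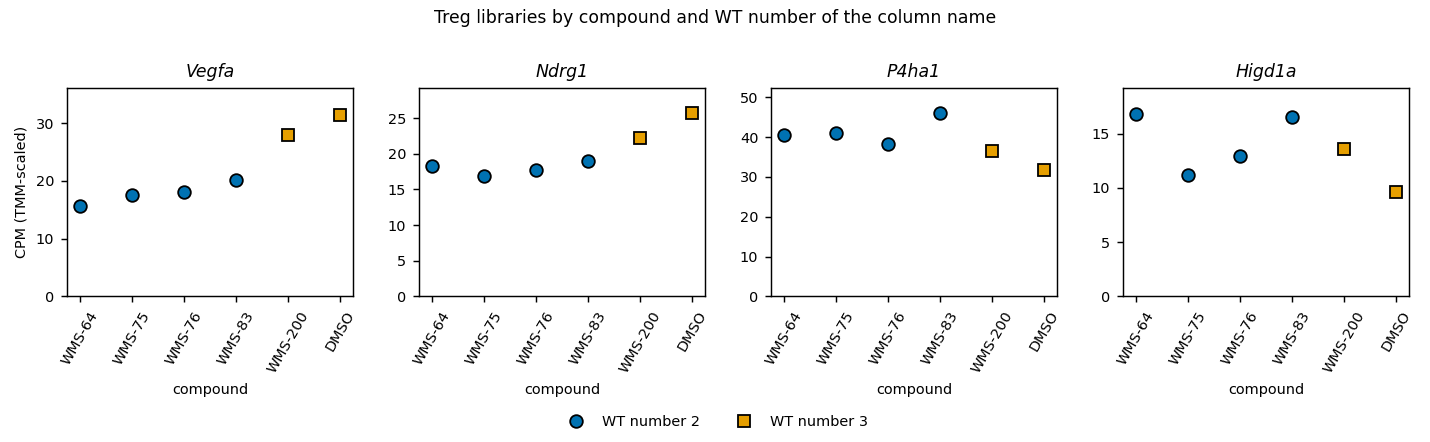
CPM (vertical axis, from 0) of Vegfa, Ndrg1, P4ha1 and Higd1a in the 6 Treg libraries by compound, with circles for the 4 libraries of WT number 2 and squares for the 2 of WT number 3. Vegfa runs from 15.6 to 20.2 in the circles, with the squares at 27.98 for WMS-200 and 31.5 for DMSO.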

How the data were processed

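Raw read counts per gene were deposited in 1 table with gene coordinates and lengths. The authors used fastp, HISAT2 and featureCounts to make these counts, per the submitters' processing notes; their versions, the genome build, annotation and strand setting were not given in the sources used here. Gene coordinates are those of the table. No value column was left without a labelled sample (0). One title reads Th17 although its source name, characteristics and column read Th1, and it was taken as Th1; columns name the CD8 libraries Tc1. Column names also carry a WT number: 4 in Th1, 2 in CD8, 1 to 3 in Th17, and in Treg 2 except for 2 libraries, DMSO and WMS-200, at 3.

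Low genes were removed by filterByExpr (groups: cell types; minimum count 10). Tests used edgeR 4.0.16 in R 4.3.3 (quasi-likelihood, robust, TMM), adjusted by Benjamini and Hochberg over all 15885 genes, with a threshold of 0.05. Pairs of cell types and compounds came from a model with cell type and compound (15 residual degrees of freedom, biological coefficient of variation 0.133), and agonists inside a cell type from a model with agonist or DMSO in each (16 and 0.127). CPM are TMM-scaled; marker sums use library totals. Log2 CPM for likeness had a prior count of 2. Alternatives were median-ratio factors, library totals alone, TMM without ribosomal protein and mitochondrial genes, no filter, DESeq2 1.42.0, limma-voom (limma 3.58.1), length offsets, subsets of libraries, the WT number as a replicate block, and each library left out; the fits without both Treg libraries of WT number 3 were chosen after seeing the data. Genes of companion lists were named as the 2 largest rises and falls per pair among called genes with a mean log2 CPM of at least 1. The members and lists were chosen with earlier results of these data known. Precision is limited by the 6 libraries of a cell type and the single DMSO library in each.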

Additional observations from a re-analysis of the deposited data

Results flagged for a closer look

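In the groups of 6 libraries of a cell type, the extreme library was compared with its nearest neighbour by Dixon's criterion at 95%; 40 groups were tested, and chance alone flags about 1 in 20. In all, 4 libraries stood apart. Hif1a in CD8 was lowest with WMS-83 at 604 CPM, the other 5 lying between 657 and 668. Bnip3 in CD8 was highest with WMS-64 at 22.9 CPM, the others lying between 17.9 and 19.6. Higd1a was lowest with WMS-76 in CD8 at 47.2 CPM, the others lying between 51.4 and 53.5, and lowest with WMS-75 in Th17 at 22 CPM, the others lying between 29.8 and 33.8. None of these libraries was apart for more than 1 member within a cell type.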

How the results depend on the processing

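Over the alternatives fitted for each comparison, the members called numbered 10 in CD8 over Treg, Th1 over Treg, Th1 over Th17 and any cell type difference. They numbered 9 to 10 in CD8 over Th17, 4 to 7 in CD8 over Th1 and 6 to 9 in Th17 over Treg. The WT number block was not fitted for pairs with Th1 or for any cell type difference. Library totals alone moved the median of all genes to -0.42, -0.45 and -0.43 for CD8, Th1 and Th17 over Treg, with 35.6%, 34.3% and 33.5% of calls higher against 48.5%, 48.2% and 48.8%. Length offsets moved it to -0.24, -0.25 and -0.25. Where a direction or call changed below, the cause was not tested.

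For Th17 over Treg, direction turned for Hif1a (-0.081), Bnip3l (-0.047) and Ankrd37 (-0.21) under library totals alone, for Bnip3 (0.078) with the WT number as a replicate block, and for Ankrd37 with length offsets (-0.60), agonist libraries only (-0.036), agonist or DMSO inside each cell type (-0.035) and without the Treg libraries of WT number 3 (-0.11). Vegfa turned to 0.10, 0.086 and 0.21 in these last 3 settings, and ran from -0.12 to 0.085 with single libraries left out. Egln1 in CD8 over Th1 ran from -0.015 to 0.050 so. Ndrg1 in CD8 over Th17 was -0.0033 by TMM without ribosomal protein and mitochondrial genes, -0.023 with agonist libraries only and -0.022 with agonist or DMSO inside each cell type, and -0.036 to 0.047 with single libraries left out.

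For agonists over DMSO, without the Treg libraries Egln3 was -1.5e-05, Vegfa 0.086 and Higd1a -0.019. Ndrg1 was -0.0040 under library totals alone, -0.0022 in DESeq2 and -0.0037 with length offsets. With single libraries left out Egln1 ran from -0.0016 to 0.089, Egln3 from -0.0068 to 0.10, Bnip3 from -0.011 to 0.24, Ndrg1 from -0.066 to 0.17, Vegfa from -0.23 to 0.083 and Higd1a from -0.024 to 0.14. In Treg, Bnip3l was -0.0071 with median-ratio factors, -0.026 under library totals, -0.0071 in DESeq2 and -0.075 with length offsets, and Ankrd37 was -0.72 with the block.

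Counts over all genes moved as follows. CD8 over Th1 called 4139 from the pair alone against 2534. Without a filter, agonists over DMSO called 26 against 0, the single compounds WMS-200 7, then WMS-83 43, WMS-64 46, WMS-76 27 and WMS-75 23, any difference among agonists 149, Th1 5 and Th17 12 against 6. In limma-voom the calls were 5 for agonists over DMSO, 5 for WMS-64, 3 each for WMS-83 and WMS-76, 4 for WMS-75 and 3 among agonists. DESeq2 called 2 among agonists, 3 in Th1 and 11 in Th17. Library totals called 1 among agonists. With the replicate block WMS-83 called 1 and Th17 102. No Th17 agonist library shares WT number 2 with the Th17 DMSO library. That Th17 count with the block therefore draws on the step between numbers 2 and 3 in Treg, where number goes with compound. It cannot be read as an agonist effect freed of the WT number. Leaving out single libraries gave 0 to 2 among agonists and 0 to 1 in Th1. In Treg the members called were 1 in limma-voom, 0 with the block and 1 to 2 with single libraries left out (1 without WMS-75), and all genes called were 17 with the block against 1401, and 930 (without WMS-83) to 2576 (without WMS-200). For the difference between cell types, members called were 1 in DESeq2 and 0 to 2 with single libraries left out (2 without Treg WMS-200). All genes called in that test were 12 with median-ratio factors, 811 without a filter, 362 in DESeq2, 2 in limma-voom, 71 with the block, and 8 to 986 with single libraries left out, against 28. The block could not be fitted for pairs with Th1, whose libraries alone carry number 4, so the part of the WT number in these pairs was not tested.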

Other observations

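Genes that act on HIF-1 alpha in T cells, from mTOR signalling and transcription, were split in most pairs of cell types. Of 10 such genes, 5 were higher and 5 lower in CD8 than in Treg (37.8% and 40.2% of all genes). In Th17 against Treg 7 were higher and 3 lower (median 0.54, beside 36.5% and 38.3% of all genes). In CD8 against Th17 2 were higher and 6 lower (24.3% and 22.8% of all genes). Eif4ebp1, a translation repressor controlled by mTOR, averaged 116 CPM in CD8, 99.99 in Th1 and 100.4 in Th17 against 23.2 in Treg. Rictor, a subunit of mTOR complex 2, averaged 81.3 CPM in CD8, 75.8 in Th1 and 118 in Th17 against 172 in Treg. Stat3, which transmits the IL-6 signal that drives Th17 cells, averaged 593 CPM in CD8, 594 in Th1 and 1091 in Th17 against 932 in Treg. Of 12 tested cytochrome c oxidase genes, 11 were higher and none lower in each of CD8, Th1 and Th17 than in Treg. Of all genes, 37.8%, 37.3% and 36.5% were called higher in these pairs. Cox6a1 was at 226, 205 and 189 CPM against 43.2 in Treg. These counts stand beside the lower ribosomal protein share of the Treg libraries.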
